A study of Mus musculus with 45 samples.

Results

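Expression of 9 transcription factor genes linked to effector regulatory T cells (Tregs) was followed across sorted mouse T cells: Prdm1, Irf4, Batf, Maf, Bhlhe40, Id2, Gata3, Rora and Nfil3. The genes were chosen by name, with no cutoff on measured values but with earlier results of these data known. All 9 were found among the 23420 genes of the deposited count table, and all 9 passed the filter on low counts, which left 14668 genes. The cells came from mice bearing B16 melanoma, a transplantable mouse skin tumour. Both tumours and non-draining lymph nodes were sources of sorted Tregs, whereas effector T cells were taken from tumours alone.

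The Treg groups are called by 4 genotype names. WT Tregs were labelled wild type, HetWT Tregs came from heterozygous mice and were labelled wild type for Nrp1, and HetNrp1def Tregs came from heterozygous mice and were labelled Nrp1-deficient. Samples titled N carried the same genotype label as the HetNrp1def samples and were kept apart by their titles. The series' design names homozygous as well as heterozygous deficient mice, and no label says which of these the N mice were, so the N genotype is not settled here. The effector T cells were labelled WT. Nrp1 encodes neuropilin-1, a membrane co-receptor found on many thymus-derived Tregs. The promoter that drives its deletion, the deleted exons, the sort gates and the ages of the mice are not given in the sources used, so counts over the whole Nrp1 gene do not check the genotype labels. Replicates were numbered 2, 3 and 4 (single-sorted cells) and ds1 and ds2 (double-sorted cells), with 5000 cells per library, and nothing states that they came from separate animals. The p-values below therefore weigh differences between group means against the spread of these samples within groups, and that spread may be technical.

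Effector Tregs are antigen-experienced Tregs that leave the resting, lymphoid-tissue state and gain suppressive and tissue-homing programmes. Blimp-1, encoded by Prdm1, is a zinc finger repressor that marks this state and acts with IRF4. BATF is a small basic leucine zipper protein that pairs with JUN proteins and binds DNA together with IRF4 at composite sites. Maf, Gata3 and Rora encode factors best known from T helper and innate lymphoid lineages that are also used by tissue Tregs. Id2 blocks the DNA binding of E proteins, Bhlhe40 is a basic helix-loop-helix repressor, and Nfil3 is a basic leucine zipper repressor that binds D-box sites of clock-controlled genes.

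Total counts ran from 2945638 to 35787148 per library, with the smallest libraries (2945638 to 5408375) all from replicate ds2. Each of the 4 heterozygous groups held 1 pair of libraries that were nearly the same (chi-square per degree of freedom 2.42 to 2.75, against 68.4 or more in every other pair of a group), and such a pair was summed into 1 sample. In the HetNrp1def and HetWT tumour groups the pair was ds1 and replicate 4, which carry different sort labels, and the sum is counted as replicate 4. In the other 7 groups ds1 stood apart over all genes, with r of log2 CPM of 0.735 to 0.866 with its group, against 0.856 to 0.97 for the other unjoined pairs. The 41 samples used below are therefore 5 per group, except 4 per heterozygous group. Levels are in CPM, the count relative to the library total scaled by TMM factors. Ikzf2 and Il2ra, which mark Tregs, were at 519 CPM or more and at 295 CPM or more in every tumour Treg sample, against at most 22.5 and 17.4 CPM in effector T cells. Foxp3 itself was low, at 5.99 to 60.0 CPM in tumour Tregs and 0 to 68.8 CPM in lymph node Tregs, with 1 lymph node sample at 0.

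The promoters of Prdm1 and Nfil3 are printed below, each with a match to 1 of the strings searched for. Promoters of 300 bases (250 before to 50 after a start site) were matched by symbol in the RefSeq table of build GRCm38.p6 for 7 of the 9 genes, Maf and Bhlhe40 having no entry. The search covered 6 strings on both strands. These were TGANTCA (called the AP-1 string, N being any base), the E-box CACGTG, the D-box TTANGTAA and the ROR site AGGTCA. The others were the hypoxia element core ACGTG, which lies within the E-box, and the GATA site GATAAG. The Prdm1 promoter is chr10:44458699-44458998 on the minus strand, with the match to the AP-1 string in capitals at position -48 from the start. Its middle base, A, matched because any base was allowed there. The Nfil3 promoter is chr13:52980990-52981289 on the minus strand, with the reverse complement of the ROR site in capitals at position -12.
Prdm1: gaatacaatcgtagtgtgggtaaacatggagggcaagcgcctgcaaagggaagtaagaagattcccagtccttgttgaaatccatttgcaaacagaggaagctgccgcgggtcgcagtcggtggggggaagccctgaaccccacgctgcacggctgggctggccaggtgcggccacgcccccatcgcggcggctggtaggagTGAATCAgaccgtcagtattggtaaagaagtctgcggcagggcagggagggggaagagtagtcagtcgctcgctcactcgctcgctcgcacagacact
Nfil3: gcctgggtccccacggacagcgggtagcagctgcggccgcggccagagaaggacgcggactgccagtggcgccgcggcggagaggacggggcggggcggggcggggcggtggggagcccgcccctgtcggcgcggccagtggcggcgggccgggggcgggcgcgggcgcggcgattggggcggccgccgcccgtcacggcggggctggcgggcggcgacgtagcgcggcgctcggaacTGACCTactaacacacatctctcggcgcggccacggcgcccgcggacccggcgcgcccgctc
The AP-1 string stood in 7.81% and the ROR string in 16.3% of all 32851 promoters of that table, so a match in 1 promoter of 7 is a description of its letters. Rora held the ACGTG core at position -187 (19.6% of all promoters), and no string searched was found in the windows of Irf4, Batf, Id2 and Gata3.

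In the average over the 4 genotypes, 6 of the 9 genes were higher in tumour than in lymph node Tregs and none was lower. Bhlhe40 rose most (11.2-fold), followed by Prdm1 (8.99-fold), Nfil3 (7.93-fold) and Id2 (7.46-fold), while Maf (2.95-fold) and Batf (2.03-fold) rose less. Irf4, Gata3 and Rora did not pass the test. Of all genes tested, 5.84% were higher in this average. As the 9 were chosen with earlier results known, that share is a description. The median log2 difference of the 9 genes was 1.74, against -0.08 over all genes. Because these are bulk samples, fewer cells that make a transcript and less of it per cell cannot be told apart. The tests are edgeR quasi-likelihood tests with Benjamini-Hochberg adjustment over all genes, called below 0.05.

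**Figure D1:**
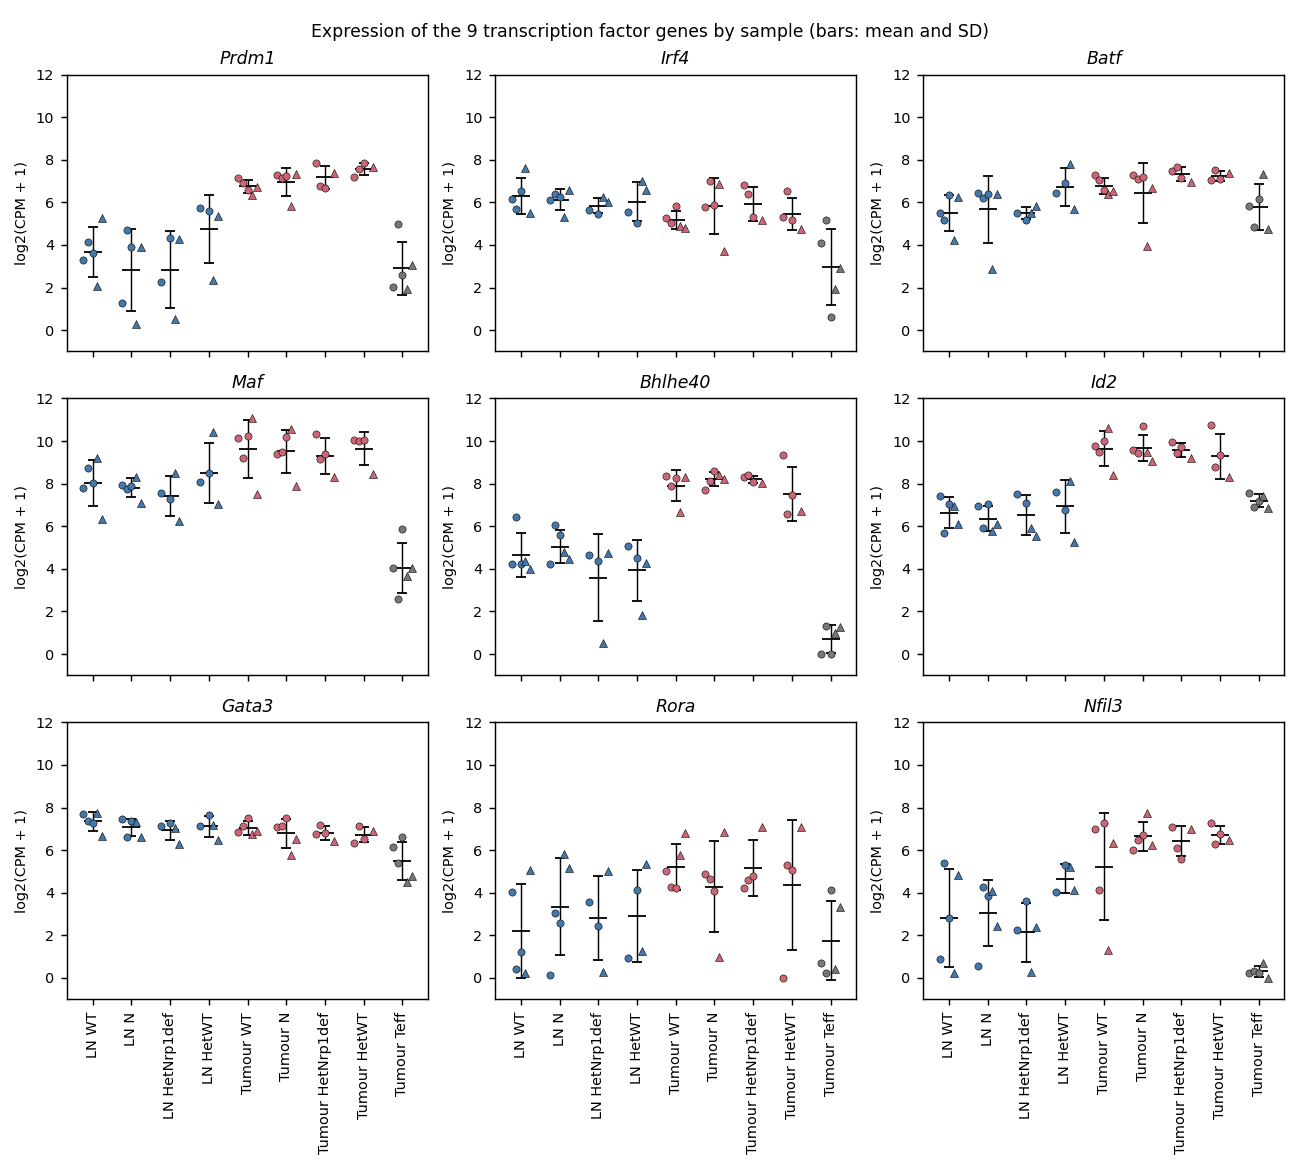
Level of each gene as log2(CPM + 1) in every sample, by tissue and genotype (LN, lymph node; Teff, effector T cells), with circles for replicates 2, 3 and 4, triangles for ds1 and ds2, and bars for the mean and SD. For Prdm1, Bhlhe40 and Id2 all 18 tumour Treg samples lie above all 18 lymph node samples. How many of all genes do so was not counted, nor was it for the other counts of samples without overlap given in the text.

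Prdm1 (ENSMUSG00000038151.13, chr10:44437177-44528501, minus strand, mm10), the gene whose promoter is printed above, was at 3.17, 8.92, 11.2, 16.7 and 37.7 CPM in the 5 WT lymph node samples and at 80.00, 93.7, 105, 121 and 142 CPM in the 5 WT tumour samples. The groups did not overlap, and the lowest tumour sample was above the highest lymph node sample. The means were 15.5 ± 13.3 CPM (SD, n = 5) and 108 ± 24.03 CPM (SD, n = 5). The other tumour groups stood at 133 CPM (55.2 to 160.3) in N, 151 CPM (99.8 to 229) in HetNrp1def and 191 CPM (144 to 230.4) in HetWT tumour Tregs. The other lymph node groups stood at 10.97 CPM (0.233 to 25.2) in N, 10.3 CPM (0.451 to 18.8) in HetNrp1def and 35.7 CPM (4.15 to 51.5) in HetWT lymph node Tregs. Over all genotypes the 18 tumour samples, all above every lymph node sample, had a median of 143 CPM against 13.99 CPM. The log2 difference in the average was 3.17 (SE 0.42, adjusted p = 1.9e-07). Within single genotypes it was 3.59 (SE 0.81, adjusted p = 0.0130) in N and 3.87 (SE 0.92, adjusted p = 0.0256) in HetNrp1def Tregs. In WT Tregs it was 2.80 (SE 0.78, adjusted p = 0.0693) and in HetWT Tregs 2.41 (SE 0.86, adjusted p = 0.359), neither of which passed the test. The WT value was called in 8 of 25 alternatives. Among them were DESeq2 (adjusted p = 0.00715), the replicate number as a block in edgeR (0.00185) and the libraries labelled single-sorted alone (0.0324). It was also called without the ds1 samples (0.0123) and without lymph node replicate ds2 (0.0411). The N call was lost without lymph node replicate 2 (adjusted p = 0.0600), and the HetNrp1def call was lost without any 1 of its 8 samples (adjusted p from 0.0563 to 0.151).

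Bhlhe40 (ENSMUSG00000030103.11, chr6:108660629-108666925, plus strand), a repressor that limits Il10 in T helper cells, was at 14.7, 17.6, 17.96, 19.8 and 86.4 CPM in WT lymph node Tregs and at 101, 239.8, 311, 316 and 327 CPM in WT tumour Tregs. The highest lymph node value and the lowest tumour value each stood apart from the rest of their group, and the groups still did not overlap. In the other genotypes it was at 299 CPM (207 to 384) in N, 297 CPM (264 to 338) in HetNrp1def and 256 CPM (95.5 to 651) in HetWT tumour Tregs. Lymph node levels were 35.7 CPM (17.8 to 65.9) in N, 17.6 CPM (0.451 to 25.9) in HetNrp1def and 18.9 CPM (2.53 to 32.7) in HetWT lymph node Tregs. All 18 tumour samples were above all 18 lymph node samples. The log2 difference was 3.48 (SE 0.41, adjusted p = 2.9e-08) in the average. It was called in each genotype alone, at 3.05 (SE 0.76, adjusted p = 0.0325) in WT, 3.06 (SE 0.76, adjusted p = 0.0343) in N, 4.07 (SE 0.89, adjusted p = 0.0133) in HetNrp1def and 3.75 (SE 0.88, adjusted p = 0.0421) in HetWT Tregs. These single-genotype calls stood close to the threshold. In WT Tregs the call was lost without any 1 of 7 of the 10 samples (lymph node 2, 4, ds1 and ds2, tumour 2, 4 and ds2), at an adjusted p of up to 0.116. It was lost without any 1 of the 10 N samples (up to 0.116), any 1 of the 4 HetNrp1def lymph node samples (up to 0.0715) and any 1 of the 8 HetWT samples (up to 0.338). An antisense gene, 0610040F04Rik, shares 118 exon bases with Bhlhe40 and had 483 counts in all libraries against 85474, and the sources used here do not say whether counting used strand.

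Id2 (ENSMUSG00000020644.9, chr12:25093799-25097140, minus strand), the inhibitor of E proteins, was at 50.5, 67.8, 124, 131 and 168 CPM in WT lymph node Tregs and at 339, 706, 858, 1033 and 1562 CPM in WT tumour Tregs. Every WT tumour sample was above every WT lymph node sample, and the same held for all 18 against all 18. How many of all genes separate in this way was not counted. The means were 108 ± 48.3 CPM (SD, n = 5) and 899 ± 450.2 CPM (SD, n = 5). The other tumour groups were at 878 CPM (539 to 1661) in N, 774 CPM (594 to 989) in HetNrp1def and 778 CPM (315 to 1709.7) in HetWT tumour Tregs. The other lymph node groups were at 87.1 CPM (54.4 to 132) in N, 106 CPM (45.9 to 179.9) in HetNrp1def and 154 CPM (36.8 to 277) in HetWT lymph node Tregs. Its log2 difference was 2.90 (SE 0.25, adjusted p = 4.8e-13) in the average, with the smallest adjusted p of the 9 genes. In single genotypes it was 3.05 (SE 0.47, adjusted p = 3.7e-05) in WT, 3.33 (SE 0.48, adjusted p = 8.2e-06) in N, 2.87 (SE 0.52, adjusted p = 0.00147) in HetNrp1def and 2.34 (SE 0.51, adjusted p = 0.0180) in HetWT Tregs. The WT, N and HetNrp1def calls held without any 1 sample. The HetWT call was lost without lymph node replicate ds2 or tumour replicate 2, at an adjusted p of up to 0.163.

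Maf (ENSMUSG00000055435.6, chr8:115682942-115707794, minus strand), a basic leucine zipper factor that drives Il10, was the member with the highest single-sample value, 2155 CPM in a WT tumour sample. It was at 80.3, 223, 260.4, 423 and 585 CPM in WT lymph node Tregs and at 182, 581, 1147, 1221 and 2155 CPM in WT tumour Tregs. The groups overlapped, since the lowest tumour sample, replicate ds2, was below 4 of the 5 lymph node samples. In the other genotypes it was at 864 CPM (237 to 1527) in N, 712 CPM (320.3 to 1297) in HetNrp1def and 875 CPM (351 to 1065) in HetWT tumour Tregs. Lymph node levels were 230.4 CPM (137 to 321) in N, 196 CPM (74.01 to 365) in HetNrp1def and 532 CPM (131 to 1373) in HetWT lymph node Tregs. Only 2 of the 18 tumour samples were above every lymph node sample, the highest lymph node sample being at 1373 CPM. The log2 difference was 1.56 (SE 0.33, adjusted p = 0.00125) in the average. No single genotype passed the test, with 1.75 in WT, 1.91 in N, 1.87 in HetNrp1def and 0.72 in HetWT Tregs.

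Batf and Irf4 encode proteins that bind DNA together. Batf (ENSMUSG00000034266.6, chr12:85686669-85709087, plus strand) ran from 6.29 to 222 CPM (median 64.7) in the 18 lymph node samples and from 14.6 to 204 CPM (median 135) in the 18 tumour samples. The tissues overlapped, and no tumour sample was above every lymph node sample. In WT Tregs Batf was at 17.9, 34.8, 43.9, 75.3 and 79.8 CPM in lymph node and 81.9, 90.2, 94.4, 131 and 155 CPM in tumour. All 5 WT tumour values were above the highest WT lymph node value. Its log2 difference was 1.02 (SE 0.29, adjusted p = 0.0135) in the average, and 1.13 in WT, 0.74 in N, 1.84 in HetNrp1def and 0.36 in HetWT Tregs, none called. Irf4 (ENSMUSG00000021356.10, chr13:30749226-30766976, plus strand) ran from 31.3 to 196 CPM (median 68.3) in the 18 lymph node samples and from 12.02 to 127 CPM (median 38.5) in the 18 tumour samples. In WT Tregs Irf4 was at 44.3, 50.95, 69.4, 92.8 and 196 CPM in lymph node and 26.9, 29.01, 31.9, 38.03 and 56.7 CPM in tumour, and the groups overlapped. Its log2 difference was -0.43 (SE 0.34, adjusted p = 0.513) in the average and -1.31 (SE 0.65, adjusted p = 0.476) in WT Tregs. In the libraries labelled single-sorted alone the average was 0.16, above 0, and was not called.

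Nfil3 and Rora both belong to the clock machinery, Nfil3 as a repressor at D-box sites and Rora as an activator of the Bmal1 gene Arntl. Nfil3 (ENSMUSG00000056749.7, chr13:52967209-52981073, minus strand), whose promoter is printed above, ran from 0.159 to 40.7 CPM (median 12.4) in the 18 lymph node samples and from 1.49 to 215 CPM (median 88.2) in the 18 tumour samples. It was above every lymph node sample in 16 of the 18 tumour samples. In WT Tregs it was at 0.159, 0.870, 6.12, 27.2 and 40.7 CPM in lymph node and 1.49, 16.8, 78.7, 128 and 156 CPM in tumour. These groups overlapped because tumour replicates ds1 and 3 were the low ones. The other tumour groups were at 109 CPM (62.8 to 215) in N, 92.9 CPM (46.4 to 133) in HetNrp1def and 106 CPM (78.4 to 153) in HetWT tumour Tregs. The other lymph node groups were at 10.6 CPM (0.485 to 18.3) in N, 4.87 CPM (0.225 to 11.2) in HetNrp1def and 26.5 CPM (15.4 to 38.6) in HetWT lymph node Tregs. The log2 difference was 2.99 (SE 0.49, adjusted p = 1.2e-05) in the average and 4.23 (SE 1.09, adjusted p = 0.0467) in HetNrp1def Tregs, the only genotype called. That call was lost without any 1 of the 8 samples (adjusted p from 0.0534 to 0.213). In the other genotypes it was 3.37 (SE 0.94, adjusted p = 0.0731) in N, 2.34 (SE 0.90, adjusted p = 0.280) in WT and 2.01 (SE 0.99, adjusted p = 0.609) in HetWT Tregs. Rora (ENSMUSG00000032238.17, chr9:68653786-69388246, plus strand) ran from 0.0970 to 56.1 CPM (median 6.10) in the 18 lymph node samples and from 0 to 136 CPM (median 27.3) in the 18 tumour samples. In WT Tregs it was at 0.159, 0.358, 1.33, 15.4 and 32.9 CPM in lymph node and 17.7, 18.6, 31.4, 53.8 and 111 CPM in tumour. It varied most of the 9 genes, with a coefficient of variation of 83.6% to 122% within the tumour groups. Its log2 difference in the average was 1.74 (SE 0.76, adjusted p = 0.145), and DESeq2 called it (1.81, adjusted p = 0.0400).

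Gata3 (ENSMUSG00000015619.10, chr2:9857078-9890034, minus strand), the zinc finger factor of the type 2 helper lineage, ran from 77.7 to 214 CPM (median 149) in the 18 lymph node samples and from 53.1 to 183 CPM (median 116) in the 18 tumour samples. Every tissue range overlapped, and no tumour sample was above every lymph node sample. In WT Tregs it was at 101, 155, 165, 204 and 214 CPM in lymph node and 107, 114, 118, 142 and 183 CPM in tumour. The log2 difference was -0.28 (SE 0.21, adjusted p = 0.494) in the average and lay from -0.15 to -0.41 in the single genotypes, none called. In the authors' deposited log2 values it was -0.49 and was called as lower (limma, adjusted p = 0.0299). The gene 9230102O04Rik shares 77 exon bases with Gata3 on the same strand, with 227 counts against 76015.

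By genotype, 2 of the 9 genes were called higher in WT tumour Tregs (Bhlhe40 and Id2), where 0.511% of all genes were. In N Tregs 3 were called (Prdm1, Bhlhe40 and Id2) against 0.566% of all genes. In HetNrp1def Tregs 4 were called (Prdm1, Bhlhe40, Id2 and Nfil3) against 0.348%, and in HetWT Tregs 2 (Bhlhe40 and Id2) against 0.164%. No member was called lower in any of these. Without the ds2 samples, the smallest libraries, the average called 6, and HetNrp1def and HetWT Tregs 1 each (Id2). WT and N Tregs called 2 each (Id2 and Maf) there. Genes called over the whole table fell as well, in the average from 1644 to 1111 and in N Tregs from 116 to 88. In HetNrp1def Tregs they fell from 96 to 43, in HetWT from 35 to 19 and in WT from 128 to 126. Without the ds1 samples, the average called 6, WT Tregs 3 (Prdm1, Bhlhe40 and Id2), N Tregs 4 (these and Nfil3), HetNrp1def Tregs 5 (these and Batf) and HetWT Tregs 2 (Bhlhe40 and Id2), while the genes called over the whole table rose too, in WT Tregs from 128 to 345, in HetWT from 35 to 117, in N from 116 to 208 and in HetNrp1def Tregs from 96 to 175. In the authors' log2 values, in which every replicate number has the same mean for a gene, the average called 4 higher and 1 lower. Maf (0.49, adjusted p = 0.342) and Nfil3 (1.35, adjusted p = 0.0761) were not called as higher there, while Gata3 was called as lower. In those values the WT contrast called 0, with Id2 at 1.41 (limma, adjusted p = 0.415) and Bhlhe40 at -0.24. The WT tumour ds2 column of that table followed its own counts less than any other column did (r over 10832 genes 0.276, against 0.495 to 0.912 for the others) and followed an effector T cell library more (0.471). Without that column the WT contrast still called 0, with Id2 at 1.92 (limma, adjusted p = 0.0682) and Bhlhe40 at 0.58, and the average called 5 higher, Nfil3 now among them, and Gata3 as lower.

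**Figure D2:**
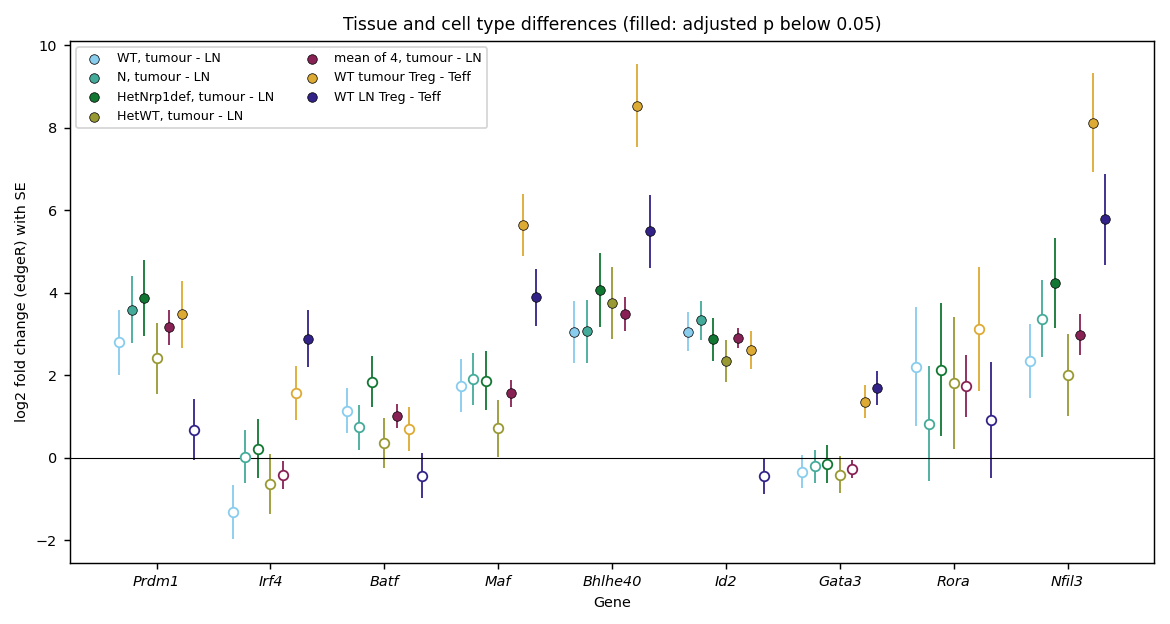
Log2 fold change of each gene with its SE from edgeR, for tumour minus lymph node in each genotype and in their average, and for WT Tregs minus effector T cells. Filled points passed an adjusted p of 0.05, and those of Id2 and Bhlhe40 are filled in all 5 tissue comparisons.

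The same difference was also taken within each replicate number and genotype, which gave 16 tumour and lymph node sample pairs. Prdm1, Batf, Maf, Bhlhe40 and Id2 were higher in tumour in 16 of 16 pairs, Nfil3 in 15 and Rora in 14. Gata3 was higher in 6 and Irf4 in 4 of the 16. Id2 had the narrowest range, from 2.32 to 3.80 on the log2 scale, and Rora the widest, from -5.78 to 7.89. These counts describe the samples, since the numbers were not shown to pair tumour with lymph node samples. Nor was it counted how many of all genes tested were higher in tumour in as many pairs.

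**Figure D3:**
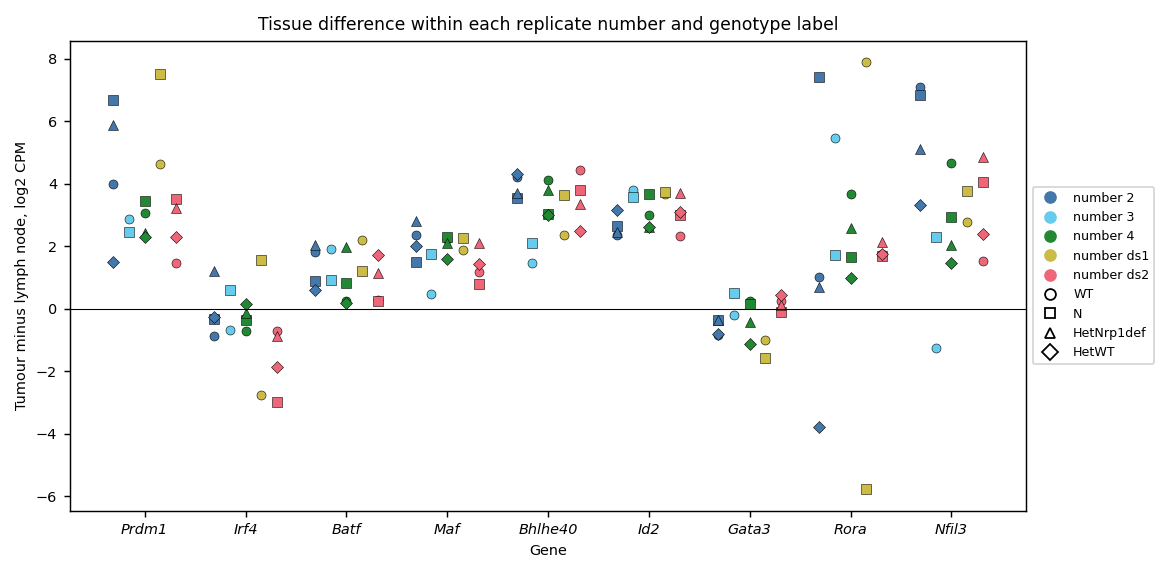
Tumour minus lymph node difference in log2 CPM for each of the 16 pairs of samples that share a replicate number and genotype name, coloured by number and shaped by genotype. All 16 points of Prdm1, Batf, Maf, Bhlhe40 and Id2 lie above 0, whereas 12 of 16 lie below 0 for Irf4 and 10 of 16 for Gata3.

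Replicate ds2 stood apart for several members. Rora was highest in ds2 in all 4 tumour Treg groups, at 111 to 136 CPM, and in 7 of the 9 groups. Maf was lowest in ds2 in 8 of 9 groups, Id2 in 7 of 9, and Irf4 in 5 of 9, each including all 4 tumour Treg groups. Prdm1 was lowest in ds1 in all 7 groups that held a separate ds1 sample. The ds2 libraries also had the fewest counts, and the part of depth or of double sorting in these levels was not tested.

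Markers of other cell types differed between tissues too. The summed level of 10 melanoma genes ran from 6.58 to 3826 CPM (median 48.6) in tumour Tregs and from 2.22 to 73.1 CPM (median 21.5) in lymph node Tregs, and 9 of the 10 were called higher in the average. In 10 of the 18 tumour samples that sum lay within the lymph node range. A list of 7 B cell genes had a median of 16.2 CPM in tumour and 207 CPM in lymph node, and 6 of the 7 were called lower. A list of 9 macrophage genes had a median of 117 CPM in tumour (1.49 to 279.7) and 52.4 CPM in lymph node (0 to 128), and 2 were called higher. A list of 6 genes of CD8 T cells ran from 522 to 2422 CPM in tumour and from 35.8 to 430.4 CPM in lymph node, with Prf1, Gzmk and Nkg7 called higher. Cd8a itself had a median of 33.0 CPM in tumour and 9.94 CPM in lymph node. A list of 7 dendritic cell genes had medians of 44.5 CPM in tumour and 44.6 CPM in lymph node, with highest samples at 728 and 153 CPM, and Zbtb46 and Xcr1 were called higher. Of the lists for NK cells, for ILC2 and mast cells, and for fibroblasts and endothelium, no gene was called higher, and Cpa3, Il17rb and Pecam1 were called lower. No listed marker of the 5 lists given with values was at 0 in all samples of a tissue, and their part in the levels of the 9 genes was not tested.

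Tumour Tregs were next compared with effector T cells sorted from tumours. In WT tumour Tregs 6 of the 9 were higher than in effector T cells (Bhlhe40, Nfil3, Maf, Prdm1, Id2 and Gata3) and none was lower, where 4.1% of all genes were higher. The median log2 difference of the 9 genes was 3.12, against 0.07 over all genes. WT lymph node Tregs, compared with the same effector samples, had 5 of the 9 higher (Nfil3, Bhlhe40, Maf, Irf4 and Gata3), against 1.69% of all genes. Both comparisons share the effector samples, so their values are given side by side and not as separate evidence.

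Bhlhe40 and Nfil3 were nearly absent from effector T cells. Bhlhe40 was at 0, 0, 0.972, 1.43 and 1.45 CPM in the 5 effector samples, 32 counts in all out of 72408037. Nfil3 was at 0, 0.182, 0.186, 0.242 and 0.648 CPM, 17 counts in all. Each of the 18 tumour Treg samples was above each effector sample for both genes. The log2 differences were 8.54 (SE 0.999, adjusted p = 3.0e-08) and 8.12 (SE 1.20, adjusted p = 2.4e-06) for WT tumour Tregs, and 5.49 (SE 0.89, adjusted p = 7.1e-05) and 5.78 (SE 1.10, adjusted p = 0.000579) for WT lymph node Tregs. The WT tumour means were 336 and 303 times the effector means. Nfil3 in WT tumour replicate ds1, at 1.49 CPM, was the tumour sample nearest to the effector range.

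Maf was at 5.08, 11.8, 15.2, 15.4 and 58.5 CPM in effector T cells, below all 36 Treg samples. Its log2 differences were 5.64 (SE 0.75, adjusted p = 1.5e-06) for tumour and 3.89 (SE 0.69, adjusted p = 0.000488) for lymph node Tregs. Gata3 was at 21.9, 26.9, 41.6, 69.6 and 97.8 CPM in effector T cells, and 13 of 18 tumour and 15 of 18 lymph node samples were above the highest of these. Its log2 differences were 1.36 (SE 0.41, adjusted p = 0.0338) and 1.70 (SE 0.41, adjusted p = 0.0123). The tumour call of Gata3 was lost without any 1 of 6 samples (effector 2, 3, ds1 and ds2, tumour 3 and 4), at an adjusted p of up to 0.153. The lymph node call was lost without effector replicate ds2 or lymph node replicate 4 (up to 0.0643).

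Prdm1 and Id2 were called against effector T cells for WT tumour Tregs and not for WT lymph node Tregs. Directly between the WT tissues, Id2 was called and Prdm1 was not, as given above. Prdm1 was at 2.81, 3.03, 4.92, 7.44 and 30.2 CPM in effector T cells, within the range of the lymph node Tregs and below every tumour Treg sample. Its log2 differences were 3.48 (SE 0.81, adjusted p = 0.00308) for tumour and 0.68 (SE 0.74, adjusted p = 0.935) for lymph node Tregs. Id2 was at 115, 119.5, 144, 171 and 187 CPM, below every tumour Treg sample. Its log2 differences were 2.61 (SE 0.46, adjusted p = 7.2e-05) and -0.45 (SE 0.44, adjusted p = 0.914).

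Irf4 was called for lymph node and not for tumour Tregs. It was at 0.547, 2.81, 6.58, 16.1 and 34.9 CPM in effector T cells, and 17 of the 18 lymph node samples but 13 of the 18 tumour samples were above the highest of these. Its log2 difference was 2.89 (SE 0.69, adjusted p = 0.00992) for lymph node and 1.58 (SE 0.66, adjusted p = 0.173) for tumour Tregs, and the direct difference between the WT tissues was not called. The tumour value passed the test without effector replicate 3 (2.48, adjusted p = 0.0262), and the lymph node call was lost without effector replicate 4 or lymph node replicate ds1 (up to 0.0633). Batf was at 25.5, 27.3, 56.4, 69.9 and 162 CPM in effector T cells, overlapping both tissues, with log2 differences of 0.70 for tumour and -0.44 for lymph node Tregs. Batf was called higher in tumour Tregs without the ds1 samples (1.41, adjusted p = 0.00380). Rora was at 0.161, 0.324, 0.619, 9.15 and 16.5 CPM, with 3.12 and 0.91, and was not called. Without the ds2 samples the tumour count was 4 of 9 and the lymph node count 3 of 9, in the tumour comparison Prdm1 (adjusted p = 0.0678) and Gata3 (0.316) being lost. Without the ds1 samples the counts were 7 and 4 of 9. Calls over all genes also changed, in the tumour comparison from 838 to 589 without ds2 and to 1376 without ds1. In the lymph node comparison they went from 263 to 138 and to 425. In the authors' log2 values the tumour count was 1 of 9, with Nfil3 at -0.12 and Id2 at -0.24, both below 0. Without the WT tumour ds2 column of that table it was 2 of 9 (Maf and Bhlhe40), with Nfil3 at 0.53 and Id2 at 0.28.

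Of 8 genotype comparisons, 6 set Tregs labelled Nrp1-deficient against Tregs labelled wild type and 2 set HetWT against WT Tregs. None of the 9 was called in any of the 8, within tumour or lymph node, nor in 2 tests of whether the tissue difference itself depended on genotype. DESeq2 called none either, and 5 of the 90 values had an unadjusted p under 0.05 in edgeR, 4 of them in HetNrp1def against HetWT lymph node Tregs. The lowest adjusted p over all 10 was 0.699, for Nfil3 in HetNrp1def against HetWT lymph node Tregs. In each of these 10 comparisons 0% of all genes were called. Nrp1 itself was therefore not called, and its whole-gene counts do not check the labels. Its median was 388 CPM in WT, 187 in N, 151 in HetNrp1def and 337 in HetWT lymph node Tregs. The tumour medians were 131 CPM in WT, 157 in N, 126 in HetNrp1def and 147 in HetWT Tregs. In tumours, the members' log2 differences ran from -0.34 to 1.003 for N against WT (lowest Rora, highest Irf4) and from -0.34 to 0.50 for HetNrp1def against HetWT (lowest Prdm1, highest Irf4). Their SE ran from 0.40 for Gata3 to 1.55 for Rora. A Rora difference of 1.55 would equal its SE and could not have been called. In lymph nodes all 9 were below 0 for HetNrp1def against HetWT, from -2.42 for Nfil3 (SE 1.01) to -0.10 for Bhlhe40. Prdm1 was at -1.79 (SE 0.85), Maf at -1.44 (SE 0.70) and Batf at -1.41 (SE 0.62) in that comparison. HetWT against WT lymph node Tregs, which shares the HetWT samples, had a median of 0.55, with Batf at 1.25 (SE 0.57) and Prdm1 at 1.20 (SE 0.78). The corresponding difference of tissue differences was above 0 for all 9, with a median of 0.86, and shares those lymph node samples. For N against WT it was above 0 for 7 of 9, with a median of 0.16. In the authors' log2 values 1 genotype difference was called, Nfil3 in N against WT tumour Tregs (4.06, SE 0.92, limma adjusted p = 0.0476), where the counts gave 0.52 (SE 0.86). Without the WT tumour ds2 column of that table no genotype difference was called.

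Levels of different genes were compared as mean CPM per kilobase of exon. In WT tumour Tregs Id2 was first at 369, followed by Maf at 128, Batf at 78.7, Bhlhe40 at 55.01 and Nfil3 at 37.6. Gata3 followed at 33.4, Prdm1 at 19.4, Irf4 at 7.45 and Rora at 3.55. In WT lymph node Tregs Id2 (44.4), Gata3 (42.1), Maf (38.1) and Batf (35.8) stood close together at the top. Prdm1 (2.78) and Rora (0.768) were last. In effector T cells Id2 (60.5) and Batf (48.5) led, and Bhlhe40 (0.164) and Nfil3 (0.124) were last. Rora was the lowest member per kilobase in all 8 Treg groups.

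Ordering the 9 groups by mean CPM, neighbouring groups differed by more than their pooled SD without overlapping at only 1 step for Prdm1, Bhlhe40 and Id2. For Prdm1 that step lay between WT tumour (108 CPM) and HetWT lymph node Tregs (35.7 CPM), for Bhlhe40 between HetWT tumour (256 CPM) and N lymph node Tregs (35.7 CPM), and for Id2 between HetNrp1def tumour (774 CPM) and HetWT lymph node Tregs (154 CPM). For Maf it lay between HetNrp1def lymph node Tregs (196 CPM) and effector T cells (21.2 CPM). For Irf4, Batf, Gata3, Rora and Nfil3 no neighbouring groups met both conditions. How many of all genes have such a step was not counted.

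Over the 36 pairs of members, the Pearson r of log2 CPM across the 41 samples had a median of 0.43, as a description of samples that share tissue and group. Bhlhe40 and Nfil3 were most alike (0.82), followed by Prdm1 and Bhlhe40 (0.73) and Prdm1 and Nfil3 (0.72). With the group means removed, the median over the 36 pairs was -0.01 and the highest r was 0.54, for Prdm1 and Bhlhe40.

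The genes whose pattern over the 41 samples was most like each member were read from the whole table, again as a description. Bhlhe40 was most like Atp2b4 (r = 0.93), a calcium pump gene, and Tnfrsf18 (0.89), which encodes the costimulatory receptor GITR. Id2 was most like Ly6a (0.92), an activation antigen of lymphocytes. Maf was most like Lgals1 (0.93), which encodes galectin-1, and S100a6 (0.92). Nfil3 was most like Ctsb (0.86), a lysosomal protease gene, Rgs16 (0.86) and Entpd1 (0.85), which encodes the ectonucleotidase CD39. Prdm1 was most like Tpm4 (0.85) and Ifngr1 (0.83), which encodes a chain of the interferon gamma receptor. Gata3 was most like Cdca3 (0.82) and Birc5 (0.81), which act in cell division, and Il2ra (0.77). Batf was most like 1190002F15Rik (0.73) and Slc15a3 (0.72), Irf4 like Lxn (0.78) and Pear1 (0.78), and Rora like Pla2g6 (0.82).

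Related genes were read in 6 lists in the average tissue comparison, in which 5.84% of all genes were higher and 5.37% lower. The lists, too, were chosen with earlier results of these data known. Of 24 genes that effector Tregs are known to express, 19 were higher and 1 lower (Nt5e, named after its value was seen) in tumour, with a median log2 difference of 2.19. Gzmb, a cytotoxic granule protease, was at 5.48 (SE 0.63, adjusted p = 1.4e-07), and the receptors Tnfrsf9 at 2.96 (SE 0.24), Icos at 1.61 (SE 0.18) and Tnfrsf18 at 1.60 (SE 0.15) were called as well. Il1rl1, which encodes the interleukin-33 receptor, was not called (0.61, adjusted p = 0.446), nor was Itgae (-0.88, adjusted p = 0.0604). Of 16 genes of resting Tregs and naive T cells, 13 were lower and none higher, with a median of -1.90. Bcl2 (-3.08), the homing receptor gene Ccr7 (-3.01), Tcf7 (-2.37) and Foxp1 (-2.35) were among them.

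In a list of AP-1 and IRF family genes and related factors, 5 of 16 tested genes were higher and none lower. Fosl2, a FOS-family member, went from 3.94 ± 6.97 to 108 ± 61.7 CPM (SD, n = 18 each; log2 4.96, adjusted p = 4.3e-08). Atf3 (3.83), Batf2 (4.75) and Irf8 (1.81) were called too, as was Junb (1.63, named after its value was seen). Even in tumour Batf2 was low, at 2.09 ± 4.05 CPM, as was Atf3, at 5.60 ± 5.13 CPM (SD, n = 18 each). Fosb (1.90, adjusted p = 0.167) and Fos (1.17, adjusted p = 0.269) were not. Among 8 E proteins and helix-loop-helix relatives of Id2 and Bhlhe40, Id3 was lower and Bhlhe41 higher. Id3, the paralog of Id2 that is also counted among the resting genes, went from 254 ± 141 CPM in lymph node to 11.4 ± 11.9 CPM in tumour (log2 -4.51, SE 0.44, adjusted p = 2.2e-10), opposite in sign to Id2. Bhlhe41, the paralog of Bhlhe40, went from 2.25 ± 2.94 to 45.1 ± 83.1 CPM (log2 4.15, adjusted p = 0.00136).

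Of 15 clock and D-box genes, which include targets and partners of Nfil3 and Rora, only Cry2 was called, as lower (-2.12, adjusted p = 0.00183). Dbp, the activator that competes with Nfil3 for D-boxes, was at -1.95 (adjusted p = 0.0611) and was not called. Of 31 other T helper and Treg fate factors, 6 were higher and none lower. Hif1a (2.22, adjusted p = 3.7e-15), Tbx21 (3.98), Stat3 (1.36) and Pparg (5.52) were among those higher. Pparg was low in both tissues, at 4.94 ± 4.70 CPM in tumour and 0.275 ± 0.657 CPM in lymph node (SD). Markers of B cells fell and melanoma genes rose across the same samples, as given above.

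**Figure D4:**
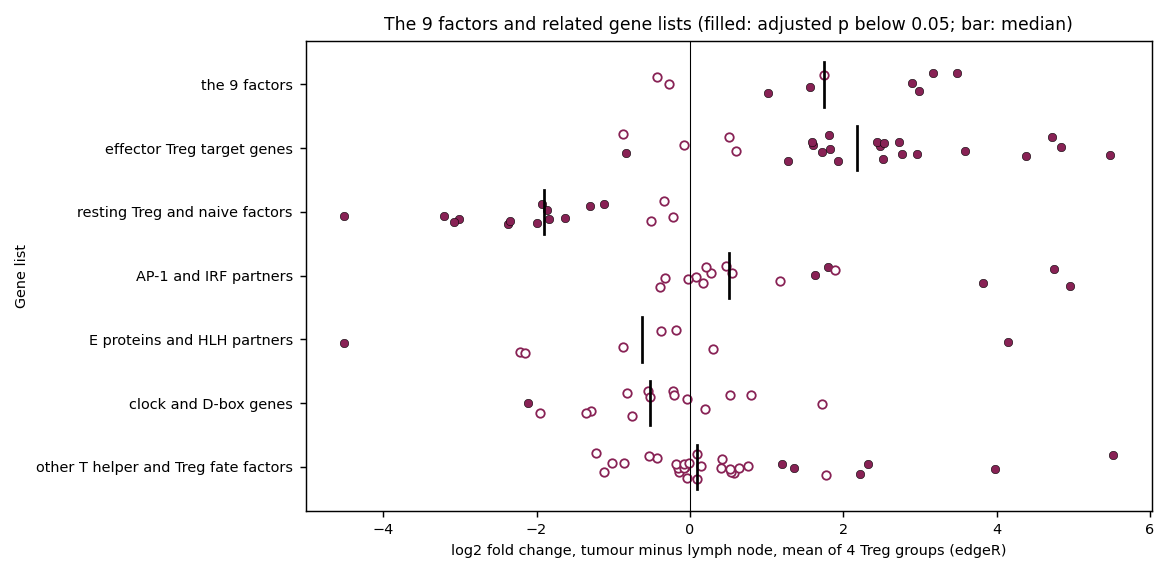
Log2 fold change from edgeR, tumour minus lymph node averaged over the 4 Treg genotypes, for the 9 factors and for each tested gene of 6 related lists. Filled points passed an adjusted p of 0.05 and bars are medians, which were 2.19 for effector Treg target genes and -1.90 for resting Treg and naive factors.

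In WT Tregs alone, where 0.511% of all genes were higher and 0.361% lower, 5 of the 24 effector genes were called higher, 10 of the 16 resting genes lower, Fosl2 higher, Id3 lower (log2 -4.38, adjusted p = 0.00143) and Hif1a and Stat3 higher. None of the 15 clock genes was called there. Against effector T cells, where 4.1% of all genes were higher and 1.61% lower, WT tumour Tregs had 23 of the 24 effector genes higher, Cd44 (1.17, adjusted p = 0.154) being the exception. They had 14 of the 16 resting genes lower, all but Ets1 (-0.65) and Myb (0.22). Fosl2 was higher (4.47, adjusted p = 0.00616) and Ikzf1 lower (-1.86) in that comparison, and Id3 was lower (-3.30, adjusted p = 0.00454). Of the 31 fate factors 10 were higher, led by Ikzf2 (6.35), which encodes Helios, Hif1a (3.57) and Hopx (5.03). No clock gene was called, with Cry2 at -2.90 (adjusted p = 0.0562).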

How the data were processed

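RNA of sorted T cells was made into cDNA and sequenced in 45 libraries (9 groups of 5). The authors deposited raw counts per gene and a smaller table of log2 values. Per the submitters' processing notes STAR, featureCounts, limma and build mm10 were used. Their versions, the strand setting and the steps behind the log2 values are not stated in the sources. In the authors' log2 table the means of the 5 replicate numbers are equal within each gene, and the WT tumour ds2 column follows its own counts poorly (r = 0.276).

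Libraries of a group with a chi-square per degree of freedom under 5 were summed (4 pairs), leaving 41 samples. The deposited counts were fitted with edgeR 4.0.16 (R 4.3.3): filterByExpr by group, TMM factors, and 1 robust quasi-likelihood model over all 9 groups with no covariate (32 residual degrees of freedom), tested on simulated data. Genes were called at a Benjamini-Hochberg adjusted p below 0.05 over the 14668 genes, and the SE is the log2 fold change over the square root of F. The average contrast weighs the 4 genotypes equally. Alternatives used DESeq2 1.42.0, limma 3.58.1 on the authors' log2 values, other scalings, filters and sample sets. Chosen after seeing the data were leaving out all ds1 samples, all ds2 samples or the WT tumour ds2 column of the log2 table, and taking only libraries labelled single-sorted.

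The members and lists were chosen with earlier results of these data known. Per list and contrast, up to 4 called genes with the smallest adjusted p and up to 2 uncalled ones with the largest fold change are named, besides the 9 members. Likeness is the Pearson r of log2 CPM with a prior count of 1. Coordinates and exon lengths are from GENCODE vM21. Spi1, Ciart, Trac, Trbc1, Trbc2, Ighm and Adgre1 were listed but not analysed here. Replicate numbers were judged to pair 2 groups only if, for each number, both samples deviated alike from their group means (r over 0.1). That applied to 3 of 14 pairs of groups, all among HetNrp1def, HetWT and WT lymph node Tregs (lowest r 0.115 to 0.127). The labels do not state such pairing, and the main model had no covariate, so its values for these groups are unpaired too.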

Additional observations from a re-analysis of the deposited data

Results flagged for a closer look

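In 8 of 81 combinations of gene and group, 1 sample stood far from the others on the log2(CPM + 1) scale, by a gap test that flags about 1 in 20 groups by chance. Replicate ds1 was the low sample in 6 of them. Prdm1 was at 4.15 CPM in HetWT lymph node replicate ds1, where the others held 40.4 to 51.5 CPM, and at 55.2 CPM in N tumour replicate ds1 (others 138 to 160.3). Batf was at 6.29 CPM in N lymph node replicate ds1 (others 73.1 to 85.3) and at 14.6 CPM in N tumour replicate ds1 (others 99.9 to 157). Bhlhe40 was at 0.451 CPM in HetNrp1def lymph node replicate ds1 (others 19.5 to 25.9), at 101 CPM in WT tumour replicate ds1 (others 239.8 to 327) and at 86.4 CPM in WT lymph node replicate 3 (others 14.7 to 19.8). Maf was at 351 CPM in HetWT tumour replicate ds2 (others 1019 to 1065). No member's tissue difference passed a test of dependence on genotype.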

How the results depend on the processing

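The average tissue comparison called 7 members with DESeq2, 5 in the authors' log2 values (Gata3 as lower), 2 in double-sorted samples alone, and 6 in the other alternatives run, leaving out 1 sample included (Gata3 as lower again among the 6 in the authors' values without their WT tumour ds2 column). Over all genes the average called 1644 of 14668 in the main fit and 2263 of 13424 with DESeq2. In the authors' log2 values it called 1017 of 10832, and 1246 without their WT tumour ds2 column. Single-genotype counts depended on more. Leaving out 1 sample gave 1 to 2 in WT (2 with all samples), 1 to 2 in N (3), 1 to 2 in HetNrp1def (4), 0 to 1 in HetWT (2), 5 to 6 for WT tumour Tregs against effector T cells (6), 4 to 5 for WT lymph node Tregs against them (5), and 0 in the genotype comparisons and interactions. Without the low-count filter each genotype gave 1. Of all 22864 genes then tested, 93 were called in WT, 100 in N, 59 in HetNrp1def and 33 in HetWT. Library totals alone gave 2 in HetNrp1def and 1 in HetWT, as RLE factors did in HetWT (1). Of all 14668 genes, library totals called 77 in HetNrp1def and 35 in HetWT, and RLE factors 28 in HetWT. Fitting only the groups compared gave 5 in N, 0 in HetNrp1def, 0 in HetWT and 1 for lymph node Tregs against effector T cells. Over all genes those fits called 146 of 10555, 18 of 10820, 37 of 11101 and 83 of 9987 in that order. The main fit called 116, 96, 35 and 263 of 14668. Single-sorted samples alone gave 1 in HetNrp1def and 1 in HetWT, with 133 and 110 of 14785 genes called. In these samples, replicate 4 of both heterozygous tumour groups is a sum with a ds1 library. With that library left out (single-sorted libraries alone) the counts were 2 and 1, with 133 and 103 of 14693 genes called. Double-sorted samples alone, where each heterozygous tumour group kept 1 sample assumed to vary like the others, gave 0 in each genotype, 2 for tumour and 1 for lymph node Tregs against effector T cells, and only 0 to 3 of 14505 genes were called in a genotype. Without ds2 samples HetNrp1def and HetWT gave 1 each and lymph node Tregs against effector T cells 3. The authors' log2 values gave 0 in WT, HetNrp1def and HetWT, 1 and 3 against effector T cells and 1 genotype call. Of all 10832 genes they called 7 in WT, 6 in HetNrp1def, 17 in HetWT, and 58 and 302 against effector T cells. In them, whose WT tumour ds2 column follows its counts poorly, the values reversed were Maf (-0.23), Bhlhe40 (-0.24) and Nfil3 (-0.37) in WT Tregs between tissues, and Id2 (-0.24) and Nfil3 (-0.12) against effector T cells. Without that column none of these was reversed, and the counts were 0 in WT, HetNrp1def and HetWT, 2 and 5 against effector T cells and 0 genotype calls. The 5, for lymph node Tregs, were Irf4, Maf, Bhlhe40 and Gata3 as higher and Id2 as lower (-1.65, limma adjusted p = 0.0309). Irf4 was reversed in the average in single-sorted samples alone (0.16) and in single-sorted libraries alone (0.16). The cause was not tested, beyond fewer samples in the subsets. With the replicate number as a replicate block the counts were 4 in WT, 5 in N, 5 in HetNrp1def, 2 in HetWT and 6 in the average, while calls over all genes rose too (WT from 128 to 382, HetWT from 35 to 93, N from 116 to 313, HetNrp1def from 96 to 190). Maf joined the calls in WT, N and HetNrp1def Tregs, Prdm1 in WT and Nfil3 in N, and no genotype call appeared. Tissue samples with the same number did not all deviate together (lowest r -0.17 to 0.10 over the 4 genotypes), so the numbers were not taken as pairs there. Counting error is large for Rora in the samples where it had 6 reads or fewer (9 of 41).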
